A study of Homo sapiens with 6 samples.

Results

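The genes described here are 37 genes of protein folding, stress sensing and protein disposal in the endoplasmic reticulum (ER), read from a comparison of mutant with parental HEK293 cells. They were chosen by symbol, and all 37 were found among the 56794 named genes of the table. By role, 20 are folding genes (chaperones, oxidoreductases and their partners), 4 belong to the stress-sensing arms and 13 serve ER-associated degradation (ERAD). HEK293 is a human embryonic kidney line often used to make recombinant protein. Both groups expressed luciferase and were grown in DMEM with 10% serum, with 3 parental libraries and 3 of the CASP8AP2 Mutant, in which CASP8AP2 had been deleted by CRISPR. The sources used here name neither the number of clones nor the position of the deletion. The labels do not tell whether the libraries of a group were separate cultures, so p-values measure only the spread between these samples, which may be technical.

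Secreted and membrane proteins fold inside the ER with the help of chaperones such as BiP (HSPA5) and calreticulin (CALR), and of disulfide isomerases. When unfolded protein builds up, the sensors IRE1 (ERN1), PERK (EIF2AK3) and ATF6 start the unfolded protein response, which raises folding capacity, slows translation and widens the route to degradation. In that route lectins pick out misfolded glycoproteins, the SEL1L-SYVN1 ubiquitin ligase and the derlins handle them at the membrane, and the ATPase VCP pulls them out for the proteasome. Cells that make much secreted protein lean on these genes, which is why they are of interest in a line used for protein production.

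Each level given is the authors' group mean of a length-scaled abundance, less the 1 that they had added, summed over the transcripts of a gene. A log2 ratio below compares mutant with parental levels, with 1 added to each. Only group means were analysed, so no value of a single library and no standard deviation is given. The step size of the lowest values gave an estimated 13300000 to 57500000 reads on transcripts per mutant library and 9190000 to 15310000 per parental one. Even in the shallowest parental library the group means correspond to at least 104 reads for each of the 37 genes, the lowest being EDEM2. CASP8AP2 RNA stood at 15.7 in mutant against 15.9 in parental cells, which does not check which cells carried the deletion. The 7 marker genes set for HEK293 were all measured in the parental group, VIM at 425 and KRT18 at 57.7, but INA was listed at 0 and NEFM stood at 0.0690 in the mutant group. Another neurofilament gene of that list, NEFL, lay the other way at 434 against 35.7. Of 10 markers of leukocytes, endothelium, fibroblasts and hepatocytes, 1 reached a level of 1, COL1A1 at 5.82 against 2.17. Across all genes the log2 ratio moved with base composition, from a median of -0.14 in the bin poorest in G and C to 0.25 in the richest of 20 bins.

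Promoters of 8 of these genes hold a sequence that is rare among all promoters. The ER stress element (ERSE), bound by ATF6 together with the factor NF-Y, was searched as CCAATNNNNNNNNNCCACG on both strands of the 250 bases before to 50 bases after each start site, in RefSeq promoters of build GRCh38.p14. Of 27305 genes with a window, 25 held it (0.0916%), and 8 of those 25 were among the 34 members that had a window. The other members, DERL1, DERL3 and PDIA3, were not searched. Of the 8, 7 are folding genes and the last is XBP1. None of the 11 degradation genes searched had this element. The sites are shown because they are the sequence that these genes share, each read 5′ to 3′ along the gene, with the element in capitals.
HSPA5, chr9:125241386-125241414, minus strand: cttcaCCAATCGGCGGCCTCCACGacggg
HSP90B1 distal, chr12:103930211-103930239, plus strand: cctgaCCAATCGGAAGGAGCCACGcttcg
HSP90B1 proximal, chr12:103930316-103930344, plus strand: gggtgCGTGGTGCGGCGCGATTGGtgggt
CALR, chr19:12938379-12938407, plus strand: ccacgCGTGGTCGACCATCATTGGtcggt
CANX, chr5:179698773-179698801, plus strand: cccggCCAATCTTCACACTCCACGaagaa
PDIA6, chr2:10812848-10812876, minus strand: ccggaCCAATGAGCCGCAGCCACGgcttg
ERO1B, chr1:236282178-236282206, minus strand: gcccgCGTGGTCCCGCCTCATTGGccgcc
CRELD2, chr22:49918549-49918577, plus strand: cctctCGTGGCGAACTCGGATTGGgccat
XBP1, chr22:28800598-28800626, minus strand: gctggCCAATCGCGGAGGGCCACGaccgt
In CALR, ERO1B, CRELD2 and the proximal site of HSP90B1 the element lies on the opposite strand, so its reverse complement is read. The HSPA5 element starts 66 bases before the start site.

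The related element ERSE-II, searched as ATTGG and CCACG with 1 base between them on both strands, was in 19 of the 27305 genes (0.0696%). Among the 34 members searched 3 held it, namely HYOU1, SDF2L1 and HERPUD1, none of which held the longer element. They are printed in the same way.
HYOU1 distal, chr11:119057375-119057395, minus strand: cgtgaCGTGGTCCAATcccag
HYOU1 proximal, chr11:119057269-119057289, minus strand: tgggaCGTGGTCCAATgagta
SDF2L1, chr22:21642109-21642129, plus strand: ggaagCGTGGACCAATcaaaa
HERPUD1, chr16:56932020-56932040, plus strand: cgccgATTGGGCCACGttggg
A core of the XBP1-binding element, TGACGTG on either strand, was commoner, in 654 genes (2.4%), and 4 members held it: DNAJC10, HYOU1, UBE2J1 and VCP. In HYOU1 it overlaps the distal ERSE-II. A match describes letters in a window and does not show that a factor was bound.

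As a set the 37 genes were close to even between the groups. In bulk RNA such as this, fewer cells with a transcript and less of it per cell cannot be told apart. All of them passed the level of at least 1 in either group, 15 were higher and 22 lower in the mutant group, and the median log2 ratio was -0.04 (quartiles -0.25 and 0.24). Over all 14856 genes at that level 50.6% were lower, and the median was -0.01. Folding genes had 9 higher and 11 lower with a median of -0.04, the sensing arms 2 and 2 with 0.05, and degradation genes 4 and 9 with -0.09. Whether the roles differ from each other was not tested, and each median lies well inside the spread of its own members. An absolute log2 ratio of at least 0.5 was reached by 4 members, P4HB and SYVN1 on the higher side and DERL2 and EDEM3 on the lower. That is 10.8%, against 22.8% of all genes.

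**Figure D1:**
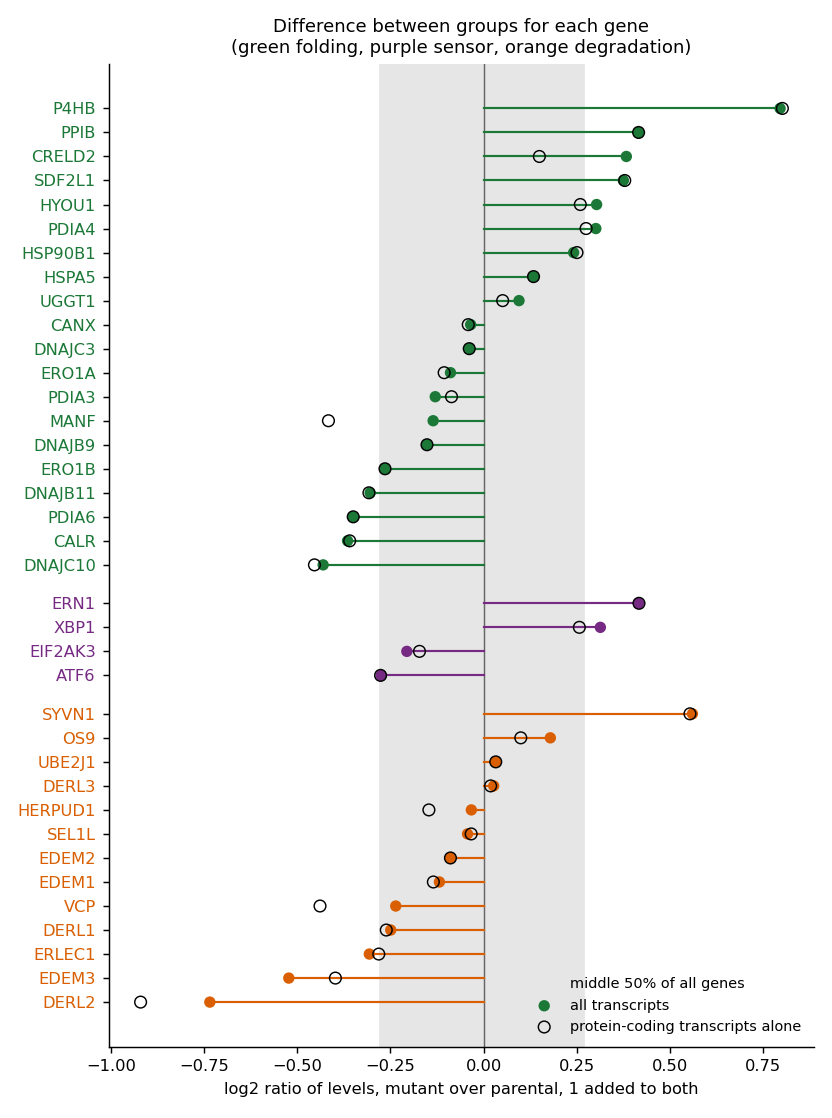
Log2 ratio of mutant over parental level for each of the 37 genes, grouped by role (green folding, purple sensing arms, orange degradation), from all transcripts (filled) and from protein-coding transcripts alone (open), with the middle 50% of all genes as a grey band. P4HB at 0.80 and DERL2 at -0.73 lie farthest from 0, and most other genes lie inside or near the band.

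No transcript of these genes had an adjusted p under the threshold of 0.05 used here. Of their 304 transcripts 271 carried a p-value, and in the authors' deposited table none had an adjusted p under 0.05, the smallest being 0.367. Over all transcripts tested 0.0221% passed. An unadjusted p under 0.05 in the authors' deposited table was held by 19 member transcripts (7.01%), against 5.79% of all transcripts. Of the 19, 11 were higher, where 3.3% of all transcripts lay, and 8 lower, where 2.48% lay. Taking for each gene its most abundant transcript, 7 of 37 (18.9%) had an unadjusted p under 0.05 in the authors' deposited table, against 13.8% of all genes. On the higher side these were SYVN1 and OS9, where 5.17% of all genes lay, and on the lower side CALR, DNAJC10, MANF, DERL1 and DERL2, where 8.63% lay. With counts this small beside the background, the differences described next are given as values.

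**Figure D2:**
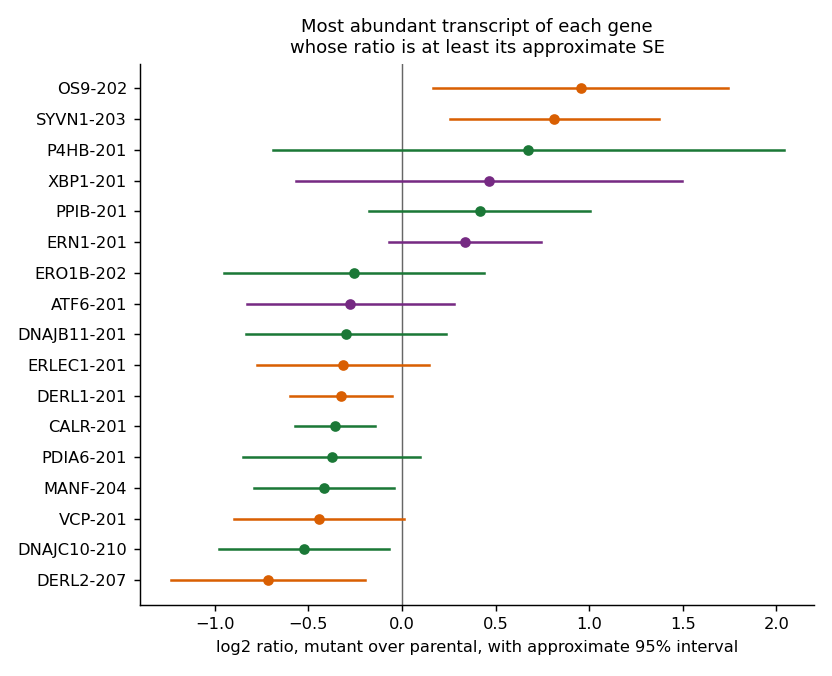
Log2 ratio with an approximate 95% interval for the most abundant transcript of the 17 genes whose ratio was at least its approximate standard error, coloured by role (green folding, purple sensing arms, orange degradation). The interval lies above 0 for OS9-202 and SYVN1-203 and below 0 for DERL1-201, CALR-201, MANF-204, DNAJC10-210 and DERL2-207. No adjustment was made for the number of transcripts or for choosing genes by the size of their ratio.

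The intervals are not part of the authors' deposited table but were worked back from its p-values. Whole reads decoded from low values showed that the deposited p was mostly that of comparing logged values between 3 and 3 libraries with a pooled spread, and on that basis a p and a ratio give back an approximate standard error. It is given only where the ratio is at least that error, since smaller ratios make it unstable, and it is not adjusted for multiple tests. Because ratios were chosen by size in this way, the intervals shown may cover the true ratio less often than their stated level. An interval wholly on the higher or lower side only restates an unadjusted p under 0.05 in the authors' deposited table. It is not further evidence of a difference.

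Among the large chaperones of the ER lumen the direction differed from gene to gene. HSPA5 encodes BiP, the HSP70 of the ER and the usual readout of the unfolded protein response, and its level was 129 in mutant against 117 in parental cells, a log2 ratio of 0.13. For its single transcript, HSPA5-201, the authors' deposited table gives a p of 0.832. HSP90B1 encodes GRP94, the HSP90 of the ER, and had 269 against 228, a log2 ratio of 0.24, with all 6 of its transcripts at a level of at least 1 on the higher side. Among them the retained-intron HSP90B1-204 had 1.18 against 0.466, and the authors' deposited table gives it a p of 0.0459. HYOU1, a large HSP70 relative that exchanges nucleotide on BiP, stood at 23.7 against 19.1. These 3 genes lay on the higher side by at most 0.30 on the log2 scale.

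The lectin chaperones did not follow them. CALR, which encodes the soluble lectin calreticulin that holds glycoproteins for folding, stood at 143 against 185, a log2 ratio of -0.37. Its main transcript CALR-201 (gene at chromosome 19, 12938578 to 12944489, plus strand, build hg38) had 128 against 165. In the authors' deposited table its p was 0.00933 and its adjusted p 0.558. The approximate 95% interval worked back from that p was -0.57 to -0.15 on the log2 scale. All 4 CALR transcripts at a level of at least 1 were lower. CANX, its membrane-bound relative calnexin, was at 141 against 145. UGGT1, which puts glucose back on unfolded glycoproteins so that these lectins bind again, stood at 8.78 against 8.15. Of these 3 genes CALR alone had a log2 ratio beyond 0.1 in either direction.

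**Figure D3:**
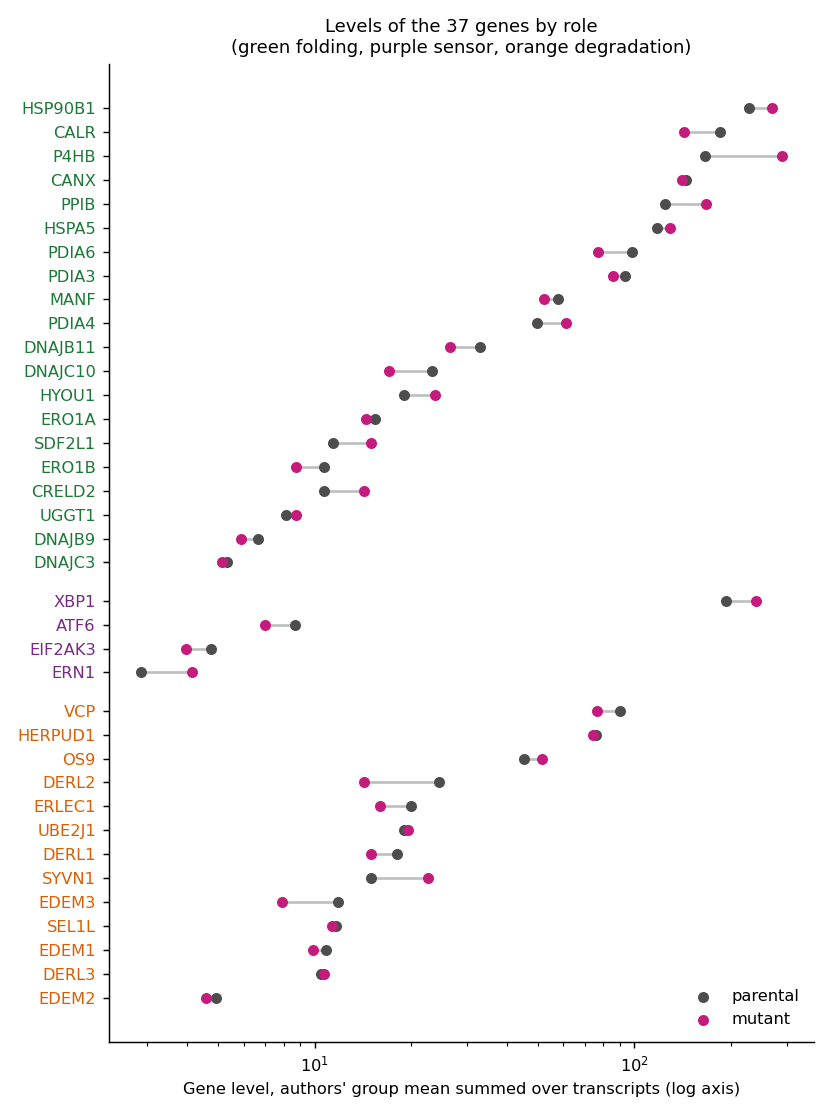
Level of each of the 37 genes in the parental (grey) and mutant (magenta) group on a log axis, each point being an authors' group mean summed over transcripts, ordered by parental level within each role. Levels run from 2.86 for ERN1 to 228 for HSP90B1 in the parental group, and the distance between groups is small beside that range.

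Disulfide isomerases and oxidases were split. P4HB encodes protein disulfide isomerase itself, also a subunit of prolyl 4-hydroxylase, and had the widest difference of all 37 genes on the higher side. It stood at 290.3 against 167 (chromosome 17, 81843159 to 81860694, minus strand), 1.74 times the parental level and a log2 ratio of 0.80. All 13 of its transcripts at a level of at least 1 were higher, among them the coding P4HB-201 (99.6 against 62.0) and P4HB-202 (82.1 against 41.0). The retained-intron P4HB-212 (7.92 against 3.07) and P4HB-208 (17.0 against 9.83) and the processed transcript P4HB-205 (4.11 against 1.74) have p-values of 0.0288, 0.0423 and 0.0354 in the authors' deposited table. Below that level the coding P4HB-203 lay the other way, at 0.300 against 0.779, and the authors' deposited table gives it a p of 0.0104. Transcripts of a gene can share reads and are not independent of each other. For P4HB-201 the p in the authors' deposited table was 0.242 and the approximate interval ran from -0.69 to 2.04, which includes 0. PDIA4, with additional thioredoxin domains, stood at 61.3 against 49.6. PDIA6, which binds BiP clients and dampens IRE1 signalling, lay the other way at 77.1 against 98.5, with a p of 0.0923 for PDIA6-201 as given in the authors' deposited table.

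PDIA3 (ERp57), the isomerase that works with calnexin and calreticulin, had 85.5 against 93.6. Most of that level was given to PDIA3-202, which the annotation calls a target of nonsense-mediated decay, at 57.4 against 57.8, while the coding PDIA3-201 had 8.01 against 8.57. A related pseudogene, PDIA3P1, stood at 38.5 against 36.3, and reads can be shared between such copies, so the PDIA3 level is uncertain. ERO1A and ERO1B encode the oxidases that reload these isomerases. ERO1A stood at 14.4 against 15.4 and ERO1B at 8.75 against 10.7. DNAJC10 (ERdj5), a reductase that opens disulfides before degradation, was lower at 17.0 against 23.3, a log2 ratio of -0.43. For DNAJC10-210 the p in the authors' deposited table was 0.0330 and the approximate interval -0.98 to -0.07.

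Co-chaperones and small luminal factors spread over the same range. PPIB, which encodes cyclophilin B, a prolyl isomerase of the ER, stood at 167 against 125, a log2 ratio of 0.42. The authors' deposited table gives PPIB-201 a p of 0.122. Its approximate interval was -0.17 to 1.01. SDF2L1, a partner of ERdj3 in the BiP cycle, had 15.1 against 11.4, and CRELD2, an ER stress-inducible isomerase-like protein, 14.2 against 10.7. On the lower side lay DNAJB11 (ERdj3), which hands clients to BiP, at 26.5 against 32.9. DNAJB9 (ERdj4), a repressor of IRE1, stood at 5.91 against 6.68 and DNAJC3, which modulates PERK, at 5.15 against 5.32.

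MANF, a stress-inducible factor that binds BiP and can be secreted, gave 2 readings. Over all transcripts it stood at 52.3 against 57.5, a log2 ratio of -0.14. The coding MANF-204 alone had 30.8 against 41.5, a log2 ratio of -0.42. In the authors' deposited table the p of MANF-204 was 0.0370. Its approximate interval ran from -0.79 to -0.04. Transcripts of MANF with a retained intron lay on the other side, at 18.1 against 13.3.

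Together the folding genes summed to 1556 in the mutant and 1409 in the parental group. P4HB made up 123 of the difference of 146. Without it the sums were 1266 and 1243, a ratio of 1.02.

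In the sensing arms the RNA of ERN1 and XBP1 stood higher and that of ATF6 and EIF2AK3 lower. No most abundant transcript of these genes had an unadjusted p under 0.05 in the authors' deposited table. ERN1, which encodes the kinase and endonuclease IRE1, had the lowest parental level of the 37 genes, at 4.15 against 2.86, a log2 ratio of 0.42. The authors' deposited table gives ERN1-201 a p of 0.0841. Its approximate interval was -0.07 to 0.74. XBP1, the transcription factor gene whose message IRE1 cuts, stood at 240.1 against 193, a log2 ratio of 0.31. ATF6, a membrane-bound factor released by cleavage in the Golgi, was at 6.99 against 8.67, and for ATF6-201 the p in the authors' deposited table was 0.238. EIF2AK3, which encodes the translation kinase PERK, was at 3.98 against 4.74. The activity of these sensors is set by cleavage and phosphorylation, which RNA levels do not measure.

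XBP1 is the member whose RNA carries a trace of sensor activity, since IRE1 removes 26 bases from its coding sequence and the reading frame shifts to the active factor. The annotation places this stretch at chr22:28796124-28796149 on the minus strand of hg38, in an exon. It was found as the bases present in XBP1-201 and absent from XBP1-207. It is shown in capitals between 12 bases on either side, followed by the same place after removal. CAG stands just before the capitals and again at their end, so a stretch starting at the first CAG gives the same joined sequence. The capitals are therefore the annotated placement and do not settle where the cuts fall.
XBP1 unspliced: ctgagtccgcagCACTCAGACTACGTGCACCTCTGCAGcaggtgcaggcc
XBP1 spliced: ctgagtccgcagcaggtgcaggcc
Of the 5 protein-coding transcripts, XBP1-201, XBP1-203 and XBP1-204 hold the unspliced sequence, and XBP1-202 and XBP1-207 hold the spliced junction.

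The unspliced coding forms summed to 189 against 138, and the spliced forms to 34.3 against 48.3. The spliced share of the coding level was 15.4% in mutant against 25.9% in parental cells, so that share and the XBP1 level stood on opposite sides. The main spliced form, XBP1-207, had 30.5 against 46.4, and XBP1-202, the minor one, had 3.75 against 1.87. The authors' deposited table gives them p-values of 0.614 and 0.134. XBP1-201, the main unspliced form, had 144 against 104, with a p of 0.278 as given in the authors' deposited table and an interval of -0.56 to 1.495. For none of these 3 transcripts was the unadjusted p in the authors' deposited table under 0.05, and the spliced share itself could not be tested on group means. These forms also differ outside the 26 bases, as annotated lengths of 1850 for XBP1-201, 1794 for XBP1-207 and 1131 for XBP1-202 show. Few reads cross the 26 bases, and reads from other parts can also move level between the forms. The sources used here do not say how reads were assigned. Whether the spliced share follows removal of the 26 bases was not tested. XBP1-206, a retained-intron transcript, stood at 16.5 against 6.53, for which the authors' deposited table gives a p of 0.0388.

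**Figure D4:**
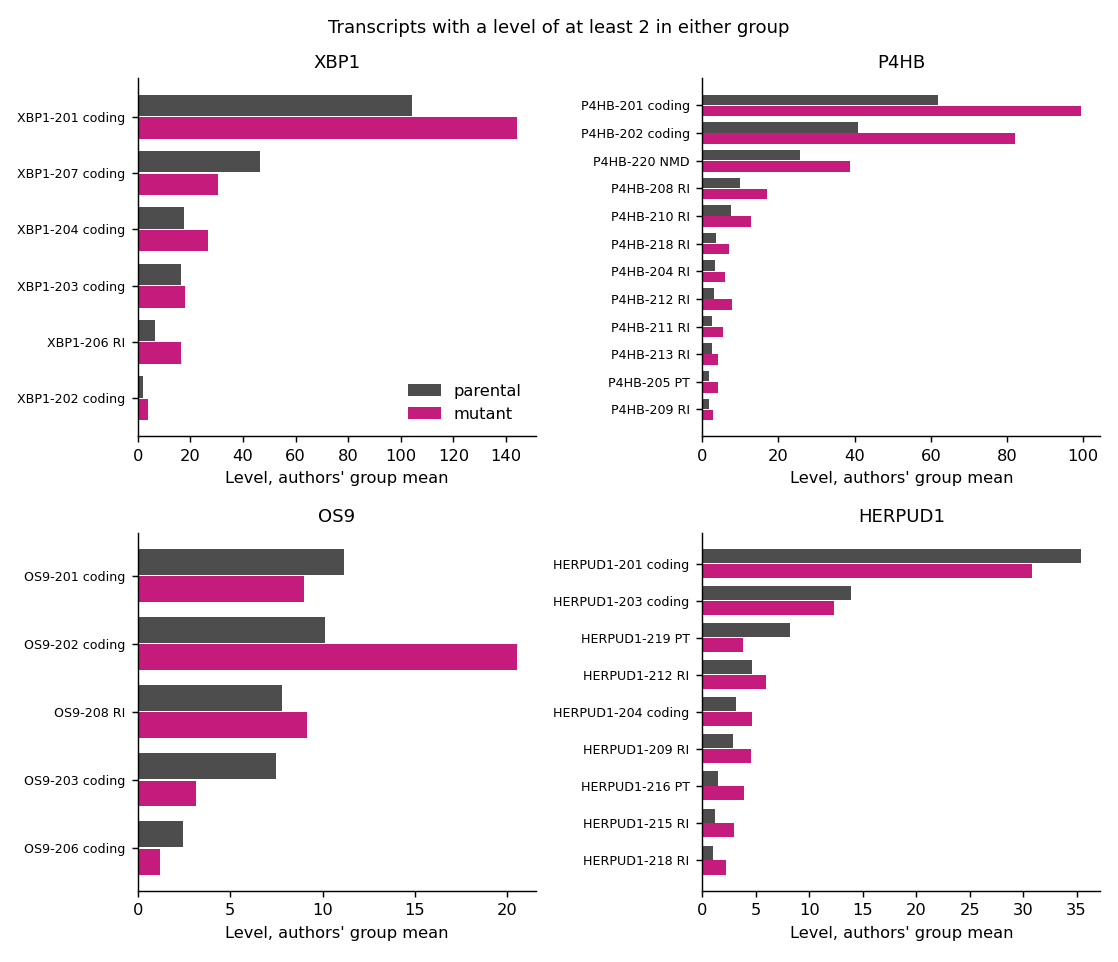
Levels (authors' group means) of the transcripts of XBP1, P4HB, OS9 and HERPUD1 that reached 2 in either group, parental in grey and mutant in magenta, with the annotated type (coding, RI retained intron, NMD nonsense-mediated decay target, PT processed transcript). The P4HB transcripts shown all lie higher in the mutant group, while in XBP1, OS9 and HERPUD1 transcripts of the same gene lie on both sides.

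Of the degradation genes 9 of 13 were lower (69.2%, against 50.6% of all genes), but the ligase gene SYVN1 was higher. SYVN1 encodes HRD1, the membrane ubiquitin ligase at the centre of ERAD, and stood at 22.6 against 15.0, a log2 ratio of 0.56. SYVN1-203 (gene at chromosome 11, 65121780 to 65134533, minus strand) had 10.2 against 5.35. Its p in the authors' deposited table was 0.0154, its adjusted p 0.639 and its interval 0.26 to 1.37. The retained-intron SYVN1-211 held the smallest p of all member transcripts in the authors' deposited table, 0.00161, at a level of only 0.901 against 0.564. SEL1L, the partner that holds HRD1 in its complex, was at 11.3 against 11.7. The annotation places SYVN1 across FAU, on the same strand, which stood at 366 in mutant against 277 in parental cells. It also places SYVN1 across MRPL49, on the opposite strand, at 26.3 against 25.5. Whether reads of these genes were counted for SYVN1 was not tested.

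The derlins, membrane proteins that thin the bilayer for retrotranslocation, did not stand together. DERL2 stood at 14.3 against 24.5 (chromosome 17, 5471251 to 5486811, minus strand), 41.5% lower and the widest difference on the lower side. The retained-intron DERL2-207 took the largest part, 6.28 against 11.0, with a p of 0.0187 as given in the authors' deposited table and an interval of -1.24 to -0.20. The coding DERL2-201 had 3.59 against 6.73, with a p of 0.121 as given in the authors' deposited table. All 5 DERL2 transcripts at a level of at least 1 were lower. DERL1 was at 15.0 against 18.1, and DERL1-201 had 13.5 against 17.2, with a p of 0.0293 as given in the authors' deposited table and an interval of -0.60 to -0.05. DERL3, the derlin most tied to the stress response, was at 10.7 against 10.5.

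Among lectins and mannosidases that mark glycoproteins for disposal EDEM3 stood farthest apart. EDEM3, a mannosidase that trims glycans on misfolded proteins, stood at 7.93 against 11.8, a log2 ratio of -0.52, and all 3 of its transcripts at a level of at least 1 were lower. The p of EDEM3-202 was 0.458 in the authors' deposited table. Its relatives EDEM1 (9.92 against 10.9) and EDEM2 (4.58 against 4.93) were nearly level. ERLEC1, a lectin that reads the trimmed glycan, had 16.0 against 19.99. OS9, the other such lectin, had 51.4 against 45.3.

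HERPUD1, a scaffold of the HRD1 complex and a strongly stress-induced gene, stood at 74.3 against 76.1. UBE2J1, the membrane-anchored ubiquitin-conjugating enzyme, was at 19.6 against 19.1. VCP, the ATPase that extracts substrates, had 76.6 against 90.4, a log2 ratio of -0.24. Its coding VCP-201 had 28.9 against 39.7, with a p of 0.0540 as given in the authors' deposited table and an interval of -0.90 to 0.01. Retained-intron transcripts made up more of VCP than the coding ones, at 47.4 against 50.4.

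Gene sums joined transcripts that lay on opposite sides. Of 26 members with at least 2 transcripts at a level of at least 1, 12 had all of them on 1 side and 14 had them on both. OS9 is the widest case. OS9-202 had 20.5 against 10.1 and OS9-203 had 3.13 against 7.45. The authors' deposited table gives them p-values of 0.0282 and 0.0377. The approximate intervals worked back from these were 0.17 to 1.74 and -1.97 to -0.10. Both transcripts are annotated as protein-coding. In HERPUD1 the processed transcript HERPUD1-219 had 3.83 against 8.16 and the retained-intron HERPUD1-215 had 2.97 against 1.22. The authors' deposited table gives them p-values of 0.00360 and 0.00585, and none of these 4 transcripts passed after adjustment.

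Retained-intron transcripts of the 37 genes summed to 331 against 281, 15.4% and 14.2% of their level. P4HB alone held 64.8 of the mutant and 35.1 of the parental sum. The ratio of the sums was 1.18, against 1.07 for the protein-coding transcripts of the 37 genes. Over all genes the same ratios were 1.09 and 0.978, so the sum over retained-intron transcripts was relatively higher in the mutant group over the whole table too. With protein-coding transcripts alone no member changed side, and the median log2 ratio was -0.09. Of the 37 genes, 14 are overlapped on the opposite strand by a gene with a level of at least 1. The sources used here do not say whether strand was used in counting, and without it such reads cannot be told apart. DERL2 is overlapped in this way by MIS12 (15.3 against 18.9) and DERL3 by SMARCB1 (58.4 against 65.8).

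Base composition moved with the differences among these genes. Spearman's rho between GC content and log2 ratio was 0.60 across the 37 genes, and 0.31 across 14723 genes. These are correlations across genes that share the same libraries, and genes are not replicates. Of the 18 members above the median GC content of 46.0%, 7 were lower and the median log2 ratio was 0.24. Of the 19 at or below it, 15 were lower and the median was -0.13. P4HB (58.4% GC), PPIB (58.2%) and SYVN1 (58.6%) lie on the rich side, and DERL2 (39.5%), EDEM3 (38.7%) and DNAJC10 (38.8%) on the poor side. With the running median of all genes at like GC content taken out, P4HB was at 0.66, SYVN1 at 0.42, DERL2 at -0.58 and CALR at -0.42. The median of the folding genes then moved to 0.11 with 7 of 20 lower, and that of degradation genes to -0.16. The part of base composition in these differences was not tested.

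**Figure D5:**
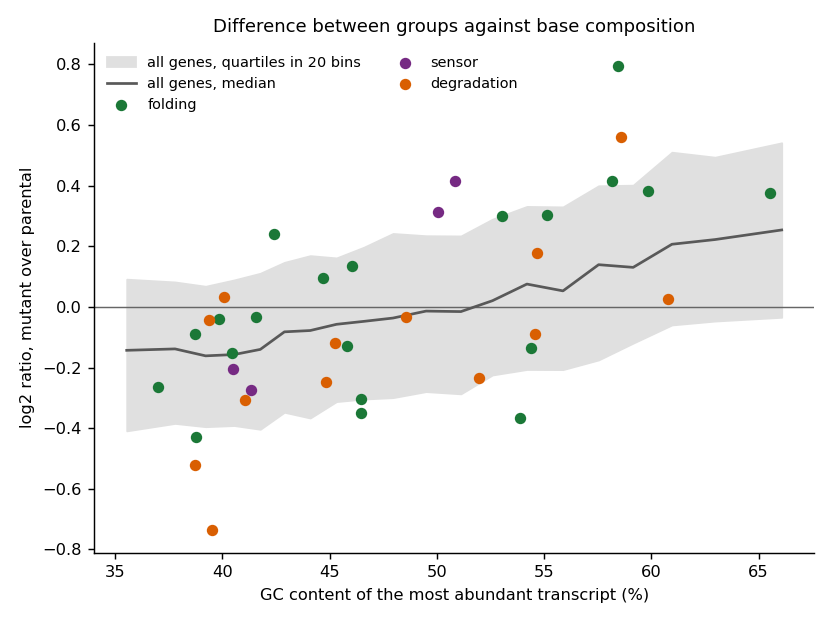
Log2 ratio of mutant over parental level against the GC content of the most abundant transcript, for the 37 genes coloured by role, with the median (line) and quartiles (band) of all genes in 20 bins. The genes rise from left to right as the line does, with genes outside the band on both sides. Among them are CALR at 53.9% GC and DERL2 at 39.5% below it, and P4HB at 58.4% above it.

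Genes with an ER stress element in the promoter did not stand on 1 side. Of the 8 with the longer element 4 were higher and 4 were lower, the median being 0.05 and the range from -0.37 for CALR to 0.38 for CRELD2. Their summed level was 1023 against 988. The 3 with ERSE-II had HYOU1 at 0.30, SDF2L1 at 0.37 and HERPUD1 at -0.03. The 23 members searched that held neither had a median of -0.09, from -0.73 to 0.80.

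Other genes of the same machinery also lay on both sides. Of 46 further folding genes 45 reached a level of 1, and 28 were higher and 17 lower with a median of 0.06. Most abundant transcripts with a p under 0.05 in the authors' deposited table numbered 2 higher and 4 lower, 13.3% of the list against 13.8% of all genes. FKBP7, a prolyl isomerase gene, had 5.46 against 8.14, and SELENOF, a selenoprotein partner of UGGT1, 75.8 against 111. CNPY3, a partner of GRP94, stood at 15.4 against 21.0, and SELENOM, an ER selenoprotein, at 23.7 against 15.8.

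Of 50 further ERAD genes 49 reached a level of 1, with 20 higher, 29 lower and a median of -0.15. Most abundant transcripts with a p under 0.05 in the authors' deposited table numbered 3 higher and 8 lower, 22.4% of the list against 13.8% of all genes. NPLOC4, a cofactor of VCP, stood at 42.7 against 25.4, with a p of 0.00157 for NPLOC4-201 as given in the authors' deposited table. TMUB1, a ubiquitin-like membrane protein gene, had 119 against 52.9. RNF5, a membrane ubiquitin ligase gene, lay lower at 13.4 against 26.6 and SVIP, an inhibitor of VCP action at the ER, at 4.93 against 8.2.

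Of 23 further genes of the unfolded protein response 20 reached a level of 1, with 12 higher, 8 lower and a median of 0.11. ATF4, the factor whose translation PERK favours, stood at 1018 against 781, and the authors' deposited table gives ATF4-202 a p of 0.00642, the single one under 0.05 in this list (5.0%, against 13.8% of all genes). Its targets CHAC1, a glutathione-degrading enzyme gene, and TRIB3, a pseudokinase gene, had 85.3 against 41.1 and 90.0 against 53.6. PPP1R15B, a phosphatase subunit that reverses the PERK mark, had 31.0 against 21.7. For the main transcripts of these 3 the authors' deposited table gives 0.0807, 0.175 and 0.0570 as p-values, and none of the genes named from these 3 lists passed after adjustment.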

How the data were processed

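Total RNA of 6 HEK293 libraries was sequenced, and the submitters' processing notes name bcl2fastq, STAR, Partek and build hg38. The sources used here do not give their versions, the quantification or any filter. Per transcript, the authors' deposited table holds the score called LSMean for each group, the signal called total counts, a ratio, a signed fold change, and p-values with their adjusted form, which are held as scores because missing entries are question marks. With 1 taken off, LSMean summed to 496162 in both groups. No group means were given for 62824 transcripts, and these were set to 0.

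Group means allowed no fit across libraries, so levels are described beside the authors' p-values. Gene levels were sums over transcripts, with 1 added before the log2 ratio and a level of at least 1 in either group. GENCODE release 29, on the same build, gave types, lengths and positions for 99.1% of transcript names. Read sizes came from transcripts seen in 1 library, whose deposited p is that of a difference equal to its standard error. Of 3851 transcripts decoded into whole reads, 83.4% gave the deposited p within 0.002 on the log scale and 25.9% on the untransformed scale. On that basis intervals used 4 degrees of freedom. The interval calculation was tried on simulated libraries compared on logged values. That setting took the log scale as given, so it could not check that scale for the deposited p. Its coverage was scored only for changes wider than the log2 ratio of any of the 37 genes. GC trends were running medians over 501 genes. All 37 members were named. Transcripts were named if they had a p under 0.05 and a level of at least 1, or the largest share of their gene, while P4HB-202, P4HB-203, PDIA3-201, DERL2-201, SYVN1-211 and the other XBP1 forms were chosen after their values were seen. From each further list 4 genes with the smallest p were named. The members, lists and alternatives were chosen with earlier results of these data known. A planned look at protein ends was not done. Python 3.11.15, pandas 2.3.3 and scipy 1.17.1 were used.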

Additional observations from a re-analysis of the deposited data

How the results depend on the processing

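Adding 0.1 in place of 1, no filter on low values, the most abundant transcript alone and protein-coding transcripts alone left the medians of the 37 genes, of the 3 roles and of the 3 further lists on the same side, and the counts of lower genes within 1.5 times. With a level of at least 5, 34 members were left, and 1 of the 2 remaining genes of the sensing arms was lower in place of 2 of 4. With the GC trend taken out the median of the members was 0.022 and that of the folding genes 0.11, with 7 of the folding genes lower in place of 11, and 6 members changed side, CANX, DNAJB9, DNAJC3, ERO1A, SEL1L and DERL3; the cause was not tested. With the most abundant transcript alone EDEM2 changed side. The count of member transcripts called was 0 at an adjusted p under 0.05 or 0.01, with the p of the factor Type, and with 1 transcript per gene adjusted anew over 14856 genes (smallest adjusted p 0.218), and 19 at an unadjusted p under 0.05. No paired analysis was possible because only group means were analysed, and for the same reason leaving out single libraries, other normalizations and other test tools were not run. The mutant group holds the deepest library, and its part in the differences was not tested.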
